A study of Mus musculus with 6 samples.

Results

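The genes described here are 4 ligands of the bone morphogenetic protein (BMP) family (Bmp2, Bmp4, Bmp5 and Bmp7), 4 secreted proteins that bind and block such ligands (Nog, Chrd, Grem1 and Fst) and the secreted modulator Bmper. They were taken by symbol from the probe sets that the platform annotation gives exactly 1 gene symbol, and all 9 were found, each with 1 probe set, among 19938 genes tested. Their transcripts were measured in mandibular arches, the buds of the first pharyngeal arch that form the lower jaw, dissected from C57BL/6 mouse embryos at embryonic day 9.5. Tbx1-/- embryos (Tbx1 null, 3 arrays) were compared with Tbx1+/+ embryos (wild type, 3 arrays) on Affymetrix Mouse Gene ST 1.0 arrays, and the comparison asks how these genes' transcripts differ when this T-box transcription factor is absent. Tissue was pooled from 3 embryos per genotype, and the description does not tie a pool to each array, so the p-values measure the spread between arrays, part of which may be technical. Levels of Y-linked genes, given below, differed widely between the Tbx1 null arrays, so these did not all carry the same RNA.

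BMPs are secreted dimers of the TGF-beta superfamily. They bind type I and type II receptor kinases, which phosphorylate Smad1, Smad5 and Smad9, and these enter the nucleus with Smad4 to switch on genes such as Msx1, Msx2 and the Id family. Secreted antagonists hold the ligands away from their receptors, so the signal a cell sees depends on ligand and antagonist together. In the mandibular arch Bmp4 is known from the distal and oral ectoderm, where it patterns the jaw and teeth, and Tbx1 is known from the core mesoderm and the pharyngeal endoderm.

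The targeted gene was read first as a check of the labels. Tbx1 had log2 levels of 9.48, 9.39 and 9.63 on the Tbx1 null arrays, against 11.64, 11.36 and 11.31 on the wild-type arrays. The groups lay far apart, with a log2 change of -1.94 (Tbx1 null minus wild type, as all changes here; limma adjusted p = 0.000684). All levels are RMA log2 values as deposited, on which 1 unit is a doubling. The median standard error (SE) of a change over all genes was 0.0579. The sources used here do not say which part of the gene the allele lacks, and no background probes were used here to judge how far dim probe sets stand above background.

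None of the 9 genes passed a limma p adjusted over all genes (Benjamini-Hochberg) of 0.05, a threshold that 0.16% of all genes passed. The nearest were Bmp4, the highest-ranking ligand, and Grem1, the highest-ranking antagonist, which went in opposite directions. At an unadjusted p under 0.05, 2 of the 9 were higher in Tbx1 null (Bmp4 and Bmp5) and 2 lower (Grem1 and Fst), where 5.5% of all genes were higher and 3.94% lower. Quantile normalisation of the arrays once more left the members' counts at 2 and 2 and gave shares of all genes of 4.51% higher and 7.12% lower. Without Tbx1 null replicate 2, Tbx1 null replicate 3 or wild type replicate 2 the counts fell to 1 and 1. The shares of all genes were then 4.04% to 4.4% higher and 2.8% to 3.34% lower. Bmp4 and Grem1 kept an unadjusted limma p under 0.05 in every alternative run, Bmp5 in 11 of 15 and Fst in 8 of 14. The arrays of the genotypes did not overlap for 1 of the 9 in the higher direction (Bmp4) and 1 in the lower (Grem1), against 8.36% and 7.06% of all genes. The median change of the 9 was 0.0079, and that of all genes tested -0.0061.

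Promoter windows of Bmp4 and Grem1 are shown because these are the members furthest from 0 for their error. They are RefSeq sequences of build GRCm38.p6, from 250 bases before to 50 after the annotated start, available for 5 of the 9 genes. Capitals mark the GC box GGGCGG, bound by Sp-family factors, and GGCGCC, a GC-rich element that Smad proteins can bind, each searched on both strands.
Bmp4 (chr14:46390620-46390919, minus strand): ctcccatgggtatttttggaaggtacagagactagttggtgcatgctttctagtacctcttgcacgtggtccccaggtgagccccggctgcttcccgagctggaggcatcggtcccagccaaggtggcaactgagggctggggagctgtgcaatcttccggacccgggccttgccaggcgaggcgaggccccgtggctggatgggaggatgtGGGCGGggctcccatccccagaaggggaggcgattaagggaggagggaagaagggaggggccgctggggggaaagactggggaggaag
Grem1 (chr2:113758599-113758898, minus strand): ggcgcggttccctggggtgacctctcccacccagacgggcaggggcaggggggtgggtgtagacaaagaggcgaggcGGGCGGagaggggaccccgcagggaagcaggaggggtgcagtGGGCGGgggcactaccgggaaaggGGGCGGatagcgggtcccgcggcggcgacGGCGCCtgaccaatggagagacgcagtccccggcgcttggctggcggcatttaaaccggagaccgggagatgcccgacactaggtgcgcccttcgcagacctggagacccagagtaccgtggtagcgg

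The Bmp4 window held 1 GC box, at -38 from the start, and the Grem1 window held 3, at -173, -131 and -107. A GC box is common, found in 35.7% of the 32851 promoter windows of the mouse table. The element GGCGCC occurred in the Grem1 window at -78 and in the Chrd window at -203, but not in those of Bmp4, Bmp5 or Bmper, and in 11.9% of all windows. The T-box core GTGTGA, which lies within the longer site GGTGTGA, was in none of the 5 windows, and in 14.5% of all windows (3.98% for the longer form). Both windows were GC-rich, at 64.0% for Bmp4 and 70.7% for Grem1, against a median of 52.7% over all windows. These letters describe the windows only, and the arrays measured nothing at these positions.

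Bmp4, the ligand of the distal and oral arch ectoderm, had log2 levels of 11.90, 11.99 and 11.97 on the Tbx1 null arrays, against 11.67, 11.62 and 11.60 on the wild-type arrays. Every Tbx1 null array lay above every wild-type array, and within a genotype the arrays differed little (SD 0.045 in Tbx1 null and 0.033 in wild type, n = 3 each). The log2 change was 0.32 (95% confidence interval 0.21 to 0.43), or 1.25-fold higher, with a limma adjusted p of 0.0577. By p-value Bmp4 ranked 44 of 19938 genes, and by the size of a positive change it ranked 234. Bmp4 had a change between 0.30 and 0.35 with any 1 array left out, and adjusted p-values of 0.100 to 0.286. It passed the threshold when genes below the median level were left out of the test (adjusted p = 0.0372), with an intensity trend and robust estimation (0.00625) and with array weights (0.0107).

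Bmp5, a ligand close in sequence to Bmp7, had log2 levels of 10.54, 10.62 and 10.65 on the Tbx1 null arrays, against 10.55, 10.28 and 10.38 on the wild-type arrays. Wild type replicate 1 lay within the Tbx1 null arrays, and the other two wild-type arrays lay below them. The change was 0.20 (95% confidence interval 0.03 to 0.37, limma adjusted p = 0.436). Leaving out wild type replicate 1 gave 0.28, and leaving out replicate 2 of that genotype gave 0.14.

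Bmp2, the closest relative of Bmp4, had levels of 7.92, 7.97 and 8.25 in Tbx1 null, against 8.06, 7.66 and 7.81 in wild type. The groups overlapped, and the spread within a genotype (SD 0.18 in Tbx1 null and 0.20 in wild type) was about as large as the change of 0.20 (95% confidence interval -0.07 to 0.48, limma adjusted p = 0.662). The highest value came from Tbx1 null replicate 3, and without that array the change was 0.10. Without wild type replicate 1 it was 0.31.

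Bmp7, a ligand broadly made by epithelia, had levels of 11.20, 11.18 and 11.38 in Tbx1 null, against 11.35, 11.23 and 11.22 in wild type. The groups overlapped over their whole range, with a change of -0.0070 and a 95% confidence interval of -0.16 to 0.15. Changes smaller than those bounds cannot be told from 0 with 3 arrays per genotype. The plot of levels by array shows all 9 genes on the same scale of differences.

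**Figure D1:**
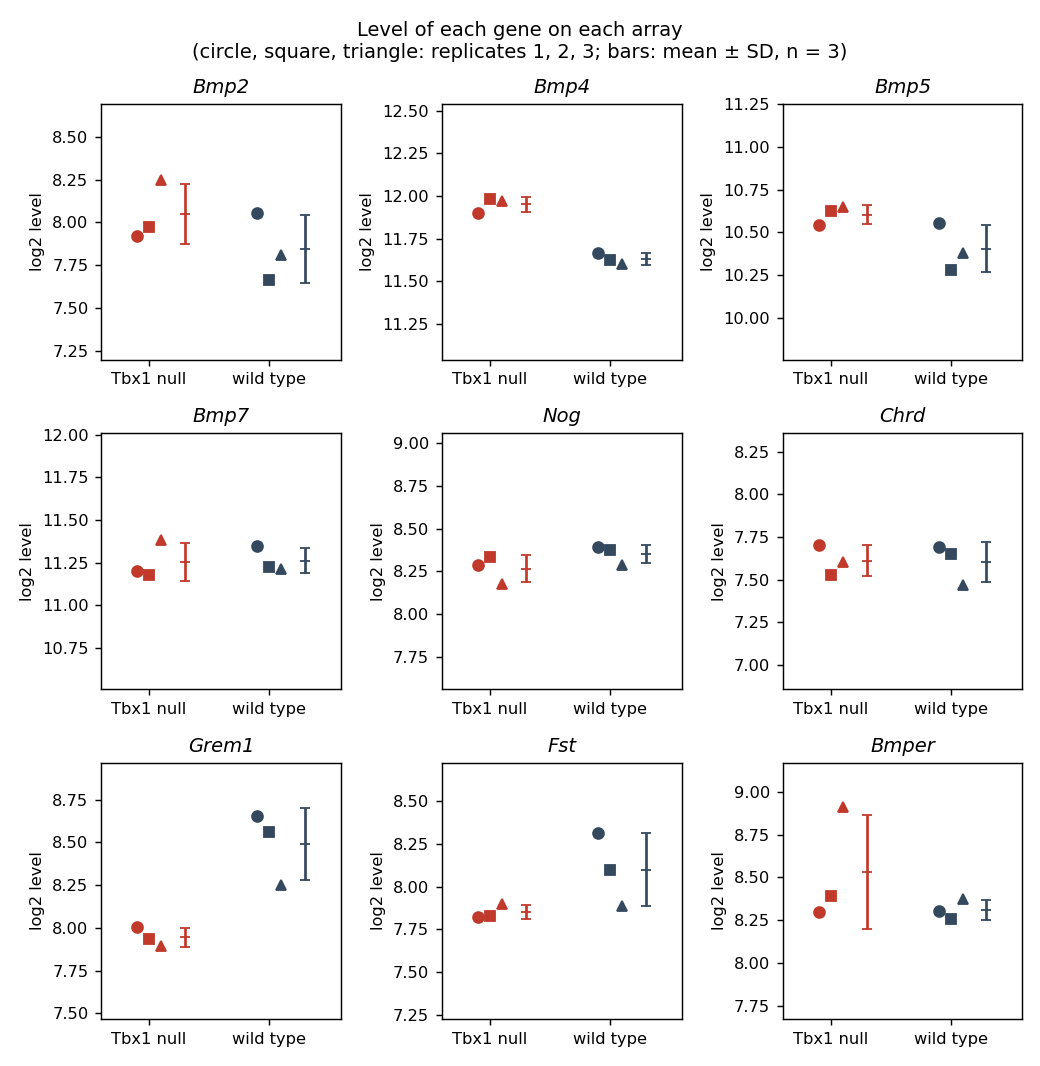
Log2 level (y axis, each panel spanning 1.5 log2 units) of the 9 genes on the 3 Tbx1 null and 3 wild-type arrays, with symbols for the replicate number and bars for the mean ± SD. The genotypes separate for Bmp4 (lowest Tbx1 null array 11.90, highest wild-type array 11.67) and for Grem1, and Bmper has a single high array.

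Among the antagonists, Grem1 (gremlin 1) binds Bmp2, Bmp4 and Bmp7 and is a known antagonist of limb and craniofacial mesenchyme. Its log2 levels were 8.004, 7.93 and 7.89 on the Tbx1 null arrays, against 8.65, 8.56 and 8.25 on the wild-type arrays. Every Tbx1 null array lay below every wild-type array, and the wild-type arrays were spread more widely (SD 0.056 in Tbx1 null and 0.21 in wild type). The change was -0.55 (95% confidence interval -0.77 to -0.32), which is 1.46-fold lower (limma adjusted p = 0.1198). Ordered from the most negative change, Grem1 stood at place 41 of 19938 genes.

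Wild type replicate 3 was the lowest wild-type array for Grem1, and without it the change was -0.66 and passed the threshold (limma adjusted p = 0.0347). Without wild type replicate 1, the highest, it was -0.46 (adjusted p = 0.200). With no array left out, Grem1 also passed with trend and robust estimation (0.0489) and with array weights (0.00806).

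Fst (follistatin), which binds activins tightly and some BMPs less tightly, had levels of 7.82, 7.83 and 7.90 in Tbx1 null, against 8.31, 8.10 and 7.89 in wild type. The Tbx1 null arrays lay close together (SD 0.043), while wild type spanned a wide range (SD 0.21), and its replicate 3 fell among the Tbx1 null arrays. The change was -0.25 (95% confidence interval -0.48 to -0.02, limma adjusted p = 0.469). Leaving out wild type replicate 1 gave -0.14, and leaving out replicate 3 of that genotype gave -0.36.

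Nog (noggin), a high-affinity antagonist of Bmp2 and Bmp4, had levels of 8.29, 8.33 and 8.18 in Tbx1 null, against 8.39, 8.38 and 8.29 in wild type. The groups overlapped, and the change of -0.09 (95% confidence interval -0.22 to 0.04) did not pass the test (limma adjusted p = 0.705). Without Tbx1 null replicate 3 it was -0.04. Chrd (chordin), which is cut by Bmp1 and the tolloid proteases to release its ligand, had levels of 7.71, 7.52 and 7.60 in Tbx1 null, against 7.69, 7.65 and 7.47 in wild type. Its arrays interleaved, and its change of 0.0079 (95% confidence interval -0.16 to 0.18) turned to -0.0083 after quantile normalisation again and to -0.0066 after median centring.

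Bmper (the crossveinless-2 homolog) binds BMPs and chordin and is known both to dampen and to promote the signal, especially around vessels. Its levels were 8.30, 8.39 and 8.91 in Tbx1 null, against 8.30, 8.26 and 8.37 in wild type. Only Tbx1 null replicate 3 stood out, and the other two Tbx1 null arrays lay close to the wild-type values. The change of 0.22 (95% confidence interval -0.12 to 0.56, limma adjusted p = 0.704) was 0.03 without that array.

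Tbx1 null replicate 3 differed in other ways. Of the Tbx1 null arrays it had the highest mean log2 level of the 12 heart muscle markers (9.05, against 8.54 and 8.76). The same held for the 8 endothelial markers (10.67, against 10.46 and 10.53) and the pharyngeal endoderm markers (8.87, against 8.54 and 8.64). Its means were also the highest for the epithelial (11.38) and core mesoderm (8.22) markers. This array had the lowest means for the arch mesenchyme (11.55), primitive erythroid (9.68) and macrophage markers. It also had the lowest mean of 3 Y-linked genes, 5.73, against 9.58 and 9.28 on the other Tbx1 null arrays and 8.57 to 9.85 in wild type. The Tbx1 null arrays were thus not matched for sex. The part of these differences in the Bmper value was not tested.

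**Figure D2:**
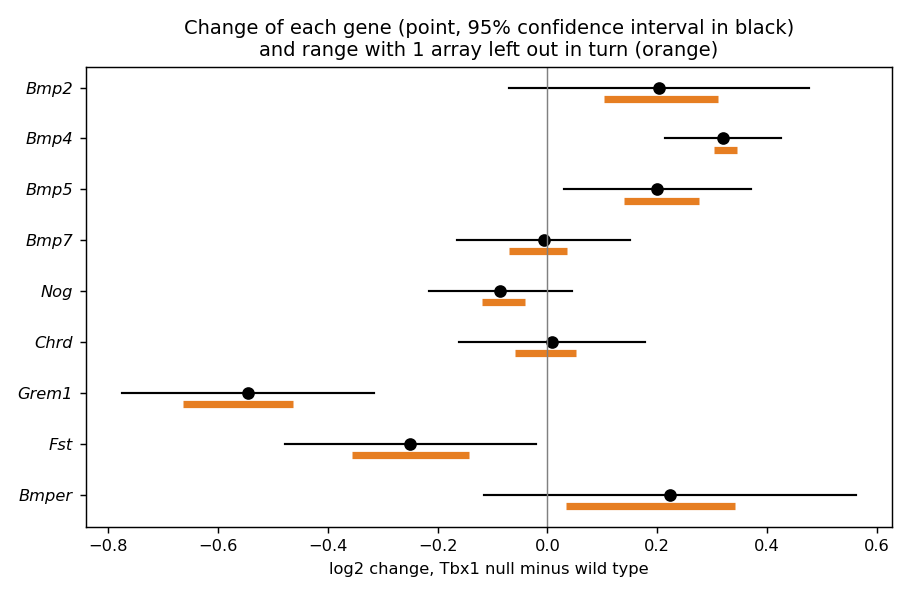
Log2 change, Tbx1 null minus wild type (x axis), of each gene (rows), with its 95% confidence interval in black and, in orange, the range of the change when each of the 6 arrays is left out in turn. The intervals of Bmp4, Bmp5, Grem1 and Fst do not cross 0, and the range of Bmper reaches down to 0.03.

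Within a genotype, the same arrays were often the highest or the lowest for several of the 9 genes. Wild type replicate 1 was the highest wild-type array for 8 of the 9, the exception being Bmper, and for 36.7% of all genes. Wild type replicate 3 was the lowest for 6 of the 9, against 35.4% of all genes. Tbx1 null replicate 3 was the highest Tbx1 null array for 5 of the 9 (Bmp2, Bmp5, Bmp7, Fst and Bmper), against 38.5% of all genes. The 9 changes share these arrays and are not independent observations.

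Set against all genes, Bmp4 and Grem1 were among the genes of larger change, whereas Bmp7 and Chrd lay near 0. Of all genes, 1.79% had a larger absolute change than Bmp4 and 0.436% a larger one than Grem1. For Fst, Bmper, Bmp2 and Bmp5 the share was between 3.15% and 5.03%.

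**Figure D3:**
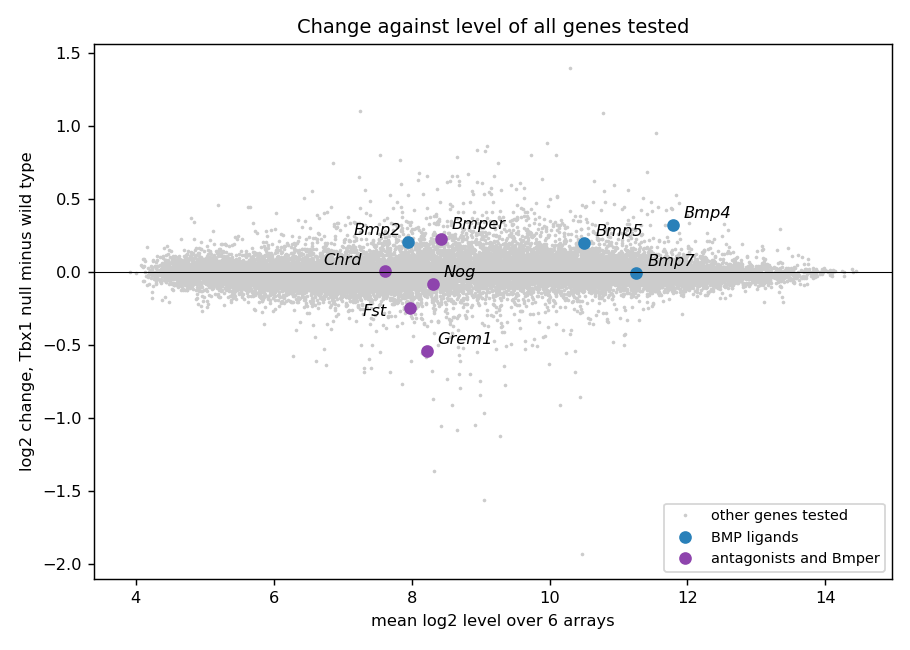
Log2 change, Tbx1 null minus wild type (y axis), against mean log2 level over the 6 arrays (x axis) for all 19938 genes tested (grey), with the 4 BMP ligands in blue and the antagonists and Bmper in purple. Bmp4 (0.32) and Grem1 (-0.55) lie on opposite sides of 0, and 1.79% and 0.436% of all genes had a larger absolute change.

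The other ligands of the family gave no call by limma. Of 19 measured BMP, GDF and activin genes outside the 9, 2 were higher and 3 were lower in Tbx1 null when p was left unadjusted (under 0.05), with a median change of -0.04. The shares of all genes at that p were 5.5% higher and 3.94% lower. Gdf6, a ligand of the joints and of the early head, had levels of 9.18, 9.05 and 8.73 in Tbx1 null, against 7.88, 8.59 and 8.51 in wild type. These arrays did not overlap but were spread widely, and the change of 0.66 had an SE of 0.19 (limma adjusted p = 0.327) and was 0.43 without wild type replicate 1. Inhbb and Bmp3 had changes of -0.27 (-0.17 without Tbx1 null replicate 3) and -0.21, and Inha, the inhibin alpha subunit, of 0.19.

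Of 21 other antagonists and modulators, not all of them secreted, 4 were higher and 3 were lower at a limma p under 0.05 before adjustment. Their median change was -0.03, and none passed the adjusted threshold. Among all genes 5.5% were higher and 3.94% lower at that p. Chrdl1 (chordin-like 1), an antagonist of Bmp4, had levels of 8.41, 8.42 and 8.61 in Tbx1 null, against 9.11, 8.94 and 8.96 in wild type. The groups did not overlap, and the change of -0.52 (SE 0.07, limma adjusted p = 0.0574) was close in size to that of Grem1. Chrdl1 passed without genes below the median level (adjusted p = 0.0463), with trend and robust estimation (0.0202) and with array weights (0.00746). The BMP co-receptor Rgmb had a change of -0.23, and Bmp1, the protease that cleaves chordin, of 0.18. Crim1, a membrane protein that binds BMPs, had a change of 0.13.

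On the receiving side no receptor passed the adjusted threshold, and before adjustment 4 of 10 were higher and 0 were lower at a limma p under 0.05 (median 0.08). Of all genes, 5.5% were higher and 3.94% lower at that p. The pseudoreceptor Bambi, itself induced by BMP, averaged 11.70 ± 0.09 in Tbx1 null and 11.28 ± 0.12 in wild type (SD, n = 3 each), and passed with trend and robust estimation (limma adjusted p = 0.0202) and with array weights (0.0172). The others were the type II receptor Bmpr2 (change 0.19) and the type I receptors Acvr1b (0.18), which carries activin signals, and Acvr1 (0.12). Acvr1 kept an unadjusted limma p under 0.05 in 9 of 15 alternative runs. Of 12 Smads and their regulators 4 were higher and 0 were lower at that p, with a median of 0.05. They were Smad9 (0.37, limma adjusted p = 0.0662), the inhibitory Smad7 (0.35) and Smad6 (0.27), and Skil (0.29, or 0.19 without wild type replicate 1), a repressor of Smad complexes. The arrays of the genotypes overlapped for Skil, which kept an unadjusted limma p under 0.05 in 11 of 15 alternative runs. Smad9 passed without genes below the median level (limma adjusted p = 0.0499), Smad9 and Smad7 with trend and robust estimation (0.0415 and 0.0487), and these and Smad6 with array weights (0.00742, 0.00872 and 0.0170).

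Among 16 measured BMP response genes 12 were higher and 1 was lower at a limma p under 0.05 before adjustment, and the median change was 0.28, where 5.5% of all genes were higher and 3.94% lower. The list was chosen with earlier results of these data known, so these counts describe it and are no independent support. Markers of arch mesenchyme, which share Msx1 with this list, had 4 of 10 higher and 0 lower at that p, and their part in the response genes' values was not tested. Msx2, a homeobox gene of arch mesenchyme, rose in Tbx1 null to 12.19 ± 0.02, against 11.80 ± 0.06 in wild type (SD, n = 3 each; limma adjusted p = 0.0422), and was the only gene of the 5 pathway lists past the adjusted threshold. It did not pass with any 1 array left out (adjusted p = 0.0865 to 0.205), after median centring (0.0537) or with every probe set tested (0.118). Tbx3, Gata3 and Hand1 had changes of 0.43, 0.48 and 0.50 and did not pass. With trend and robust estimation Tbx3 and Gata3 passed (limma adjusted p = 0.0124 and 0.0200), and with array weights these and Hand1 did (0.00682, 0.00757 and 0.0232). Tbx3 also passed without genes below the median level (0.0499), and Gata3 without wild type replicate 3 (0.0398). Hey1, which Notch also drives, was the gene with a lower level, at -0.20.

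**Figure D4:**
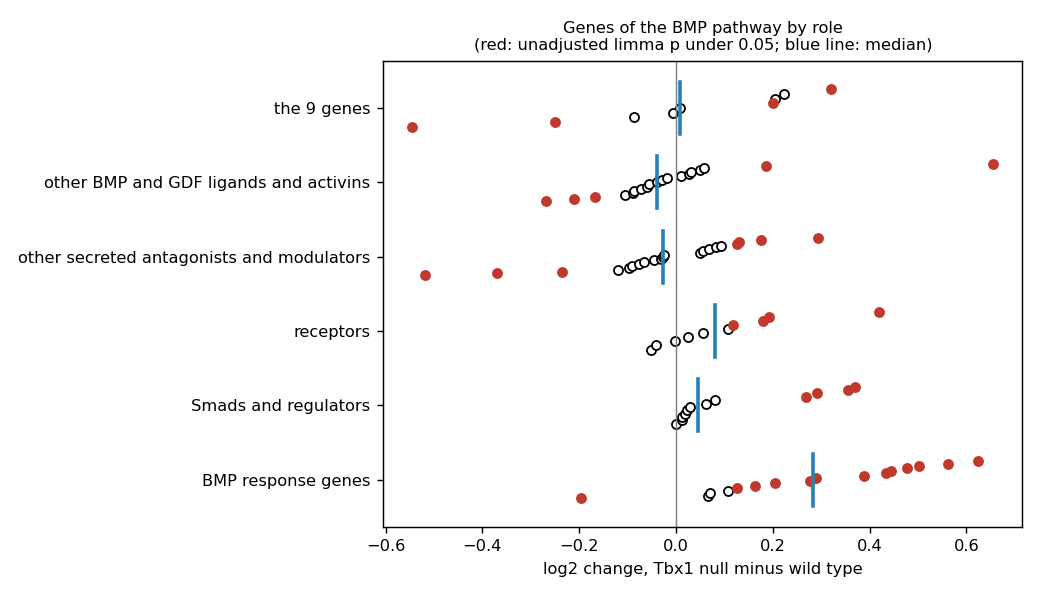
Log2 change, Tbx1 null minus wild type (x axis), of every measured gene of the 9 and of 5 lists of BMP pathway genes (rows), with genes at an unadjusted limma p under 0.05 in red and the list's median as a blue line. The medians lie at 0.0079 for the 9 genes and at 0.28 for the response genes. All lists were chosen with earlier results of these data known.

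Markers of several cell types of the dissected tissue also differed between the genotypes. All 10 markers of arch mesenchyme were measured, with mean log2 levels from 8.79 (Alx4) to 12.8 (Prrx1) over the 6 arrays. Their list means were 11.55 to 11.70 in Tbx1 null, against 11.33 to 11.59 in wild type (summed linear levels 37316 to 40186 and 32494 to 38190). Before adjustment 4 of the 10 were higher at a limma p under 0.05, Prrx1 (0.19), Prrx2 (0.23), Msx1 and Alx4, and 0 were lower. For this and the lists that follow, the shares of all genes at that p were 5.5% higher and 3.94% lower. The 12 heart muscle markers had mean log2 levels of 8.54 to 9.05 in Tbx1 null, against 8.22 to 8.49 in wild type (summed linear levels 6215 to 10383 and 4624 to 6094). Of these 8 were higher at an unadjusted limma p under 0.05, and none was lower. The 4 Hox markers of the second arch and hindbrain had means of 7.81 to 8.05, against 7.44 to 7.48 (sums 1153 to 1340 and 869 to 960). At that p 2 of the 4 were higher, Hoxa2 (1.11) and Hoxb2 (0.63), while the arrays of the genotypes overlapped for Hoxa3 (0.04) and Hoxb3 (0.18). The means of the heart muscle and Hox lists, and of the epithelial list below, thus stood higher in Tbx1 null with no overlap, as did Bmp4. The part of these lists in the Bmp4 value was not tested. The means of the pharyngeal endoderm, endothelium, macrophage and neural lists overlapped between the genotypes.

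The 7 measured markers of core mesoderm and muscle precursors were all below 0, with means of 8.14 to 8.22 in Tbx1 null against 8.62 to 8.78 in wild type (sums 2541 to 3116 and 4024 to 4794). At an unadjusted limma p under 0.05, 4 of the 7 were lower, and Msc, Myod1 and Myog were not. Among all genes 3.94% were lower and 5.5% higher at that p. Lhx2 had the largest change of the list, -1.56, and was its only gene past the adjusted threshold (limma adjusted p = 0.000784). The lower mean was thus not shared evenly by the list. Among the wild-type arrays this mean was 8.78, 8.71 and 8.62 for replicates 1, 2 and 3. Grem1, Fst, Bmp4, Bmp7, Nog and Chrd had the same order of wild-type arrays. Among the Tbx1 null arrays, replicate 3 had the highest core mesoderm mean (8.22), the lowest Grem1 level (7.89) and the highest Fst level (7.90). With 3 arrays per genotype, such orders describe the arrays only. The 9 epithelial markers had means of 11.26 to 11.38 against 11.10 to 11.19 (sums 27448 to 30231 and 24449 to 27352), and 4 were higher at an unadjusted limma p under 0.05. The 8 primitive erythroid markers had means of 9.68 to 9.75 against 9.99 to 10.07 (sums 21646 to 23697 and 26003 to 26398), and all 8 were lower at that p. In pooled tissue, fewer cells of a type and less RNA per cell cannot be told apart. The part of these lists in the values of Grem1, Fst, Bmp4 and the other pathway genes was not tested.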

How the data were processed

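Total RNA of the 6 samples was labelled from 300 ng and hybridised, per the labels' protocols. The deposited log2 levels per probe set were made by the authors with RMA (Affymetrix Expression Console 1.1, as the submitters' processing notes name it) and run from 3.63 to 14.6. Their range gave the log2 scale. RMA draws array distributions together, so a shift of most genes is not visible. Of 35556 probe sets, 21789 carried 1 symbol, 1621 several and 12146 none. Symbols were checked by Entrez ID in RefSeq (GRCm38.p6), which matched 21698. The probe set of highest mean stood for a gene. The test was limma 3.58.1 under R 4.3.3, two-sided (lmFit, then eBayes) and with no covariate, with Benjamini-Hochberg adjustment over 19938 genes. The fit was tested on simulated data. No array was a copy of another. The 9 genes and all lists were chosen with earlier results of these data known. Named are the 9 genes, Tbx1 and, of each pathway list, genes past the threshold and up to 4 of lowest p. Some genes of the lists are not analysed here. Alternatives were a replicate block, renormalisation, filters on dim genes, other variance models, array weights, other probe set rules and leaving out each array.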

Additional observations from a re-analysis of the deposited data

How the results depend on the processing

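With the replicate number as a block (replicate block), 6 genes passed in place of 32, and Bmp4 and Grem1 had adjusted p-values of 0.133 and 0.0972, while Msx2 no longer passed (0.100). The numbers were not taken as pairs in the main test. The deviations of same-numbered arrays correlated at -0.0453, 0.26 and 0.149 for replicates 1, 2 and 3. Tbx1 null replicate 1 correlated best with wild type replicate 2 (0.25). Tbx1 null replicates 2 and 3 correlated best with their same-numbered arrays, replicate 3 narrowly (0.122 with wild type replicate 1). These values do not settle whether the arrays were paired. Passing genes numbered 96 with trend and robust estimation, 334 with array weights, 4 with every probe set tested and 3 to 20 with 1 array left out. As deposited, 17 genes were higher and 15 lower, and after quantile normalisation again 12 and 22. Of the 9 genes, 1 passed without genes below the median (Bmp4, change 0.32; only 3 of the 9 were then tested), 2 with trend and robust estimation (Bmp4 0.32, Grem1 -0.55), 2 with array weights (Bmp4 0.32, Grem1 -0.58) and 0 to 1 with an array left out (Grem1, -0.66 to -0.46). The sign of Chrd turned after quantile normalisation again (-0.0083), median centring (-0.0066), with array weights (-0.024) and over the arrays left out (-0.059 to 0.052), as did that of Bmp7 over the arrays left out (-0.071 to 0.035). The causes were not tested. Bmp2, Bmp4, Bmp5, Nog, Grem1, Fst and Bmper kept their sign under every alternative run. The number of arrays limits the precision, and signal over background could not be judged for dim probe sets.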

Other observations

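Over the 6 arrays, the genes whose log2 levels followed Bmp4 most closely were F630048H11Rik, Lrch3 and Gm10575 (Pearson r = 0.996, 0.992 and 0.99), and those nearest to Grem1 were Hk3, Asic1 and Nrgn (r = 0.992, 0.991 and 0.988). These values describe 6 arrays that include the difference between the genotypes, and 76 and 69 genes reached an r over 0.95 with Bmp4 and with Grem1.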
